A study of Mus musculus with 1 sample.

Results

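Secreted proteins such as procollagen leave a fibroblast by a fixed route. The signal recognition particle (SRP) brings the ribosome to the endoplasmic reticulum (ER), the Sec61 channel lets the chain through, signal peptidase cuts off the signal peptide, and COPII coats form the carriers that leave at ER exit sites. COPI coats and the KDEL receptors return escaped ER proteins from the Golgi. Collagen is a bulky cargo whose export depends on the exit-site protein TANGO1 (gene Mia3) as well as on the COPII coat.

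The genes of this route were taken as the rows of the deposited table whose gene name is on a list of 45 names covering translocation into the ER, COPII export and COPI retrieval. A row was found for 44 of the 45 names, of 23386 genes in the table. The name without a row was Copg1, a COPI subunit; the row named Copg carries the RefSeq accessions of that gene, and its values are given beside the others without being counted. The genes were selected by name, and the rule uses no measured value, but the list was chosen with earlier results of these data known.

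RNA of 1 library was measured: fibroblasts expanded in vitro from normal mouse pancreas of mixed C57BL/6 and BALB/c background. Its genotype includes tf1acre- and Tgfrb2flox/flox, that is, no Cre driver and a floxed receptor gene. By its title the series set cancer-associated fibroblasts (CAF) against normal fibroblasts (NF); the library labelled normal fibroblast is the 1 sample analysed here, and its value column bears a CAF code, so which of the 2 cell states it holds cannot be told from the files. There is no replicate and no comparison between conditions, so no test was run, and every interval is a 95% interval of counting error only.

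The library held 52494688 recovered reads, so that 1 read is 0.0190 CPM (counts per 1000000 reads). Levels are given as RPKM, reads per kilobase of the union of a gene's annotated exons per 1000000 reads, which allows genes to be set against each other. A second value, called matched RPKM, divides by the exons of only those annotated transcripts that match the row's own RefSeq accessions. All 7 fibroblast markers examined were abundant (36.5 to 603 RPKM; sum 5375 CPM). Of 10 acinar markers 9 had at least 10 reads, as did 68.0% of protein-coding genes. The 10 ranged from 0.0698 to 58.5 RPKM (sum 301 CPM), with the acinar factor gene Ptf1a at 6 reads. At least 10 reads were also held by 7 of 7 ductal, 5 of 5 endothelial, 6 of 7 leukocyte and 2 of 5 endocrine markers. Summed markers of ductal epithelium (37.9 CPM, 7 genes, from 0.529 RPKM for Epcam to 8.22 RPKM), endocrine cells (0.686 CPM, 5 genes, at most 0.140 RPKM, Sst at 0) and leukocytes (20.3 CPM, 7 genes, at most 6.99 RPKM) were lower; 9505 of the 9596 endothelial reads were from Kdr alone. Acinar cells are the professional secretory cells of the pancreas, and the part that acinar RNA has in the levels below was not tested; in bulk RNA, fewer cells of a type and less RNA per cell cannot be told apart.

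The promoters of some of these genes, 16 of the 35 with a promoter window, carried short motifs that the rule did not use. XBP1, ATF6 and the CREB3-family factors of the unfolded protein response, which adjusts ER capacity to load, are known to bind elements built around ACGT. The list was not checked for known targets of these factors. A RefSeq window of 250 bases before to 50 after the start (GRCm38.p6) was held for 35 of the 44 genes, and 5 motifs, chosen after the levels had been seen, were searched on both strands. TGACGTG, the core of the UPR element (UPRE), was present in 7 of the 35 genes (20%), against 2.58% of 16024 protein-coding genes and 2.01% of all windows. GCCACGT, a core of XBP1 sites, was present in 12 (34.3%), against 3.59% of protein-coding genes and 2.58% of all windows. Either was present in 16 (45.7%), against 5.82% of protein-coding genes and 7.05% of those with at least 10 reads. Of related genes with a window, 2 of 10 for ER-resident proteins of the KDEL type (20%) and 1 of 7 for procollagen chains (14.3%) held either. A gene counted if any of its windows held the motif, and Ctage5 had 3 windows. The motifs can overlap as TGACGTGGC, as they do in Sec23a, Sec24d and Kdelr3.

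The following stretches, on the gene's strand from 5′ to 3′ with the motif in capitals, are shown because they mark members at successive steps of the route: the SRP receptor, a translocon-associated subunit, a signal peptidase subunit, the COPII GTPase, 2 cargo-binding COPII subunits, TANGO1, a COPI subunit and a KDEL receptor.
Srpr (chr9:35211170-35211202, + strand): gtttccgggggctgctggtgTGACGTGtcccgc
Ssr1 (chr13:37994209-37994255, - strand): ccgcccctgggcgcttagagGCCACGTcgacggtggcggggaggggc
Spcs1 (chr14:31001701-31001747, - strand): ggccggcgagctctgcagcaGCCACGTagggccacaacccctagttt
Sar1a (chr10:61680107-61680153, + strand): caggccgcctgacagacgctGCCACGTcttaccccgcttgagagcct
Sec24c (chr14:20674226-20674272, + strand): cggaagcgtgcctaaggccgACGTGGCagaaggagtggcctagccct
Sec24d (chr3:123267450-123267495, + strand): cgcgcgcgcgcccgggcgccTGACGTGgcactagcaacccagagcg
Mia3 (chr1:183369625-183369671, - strand): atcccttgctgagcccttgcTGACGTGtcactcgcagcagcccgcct
Copb1 (chr7:114254681-114254727, - strand): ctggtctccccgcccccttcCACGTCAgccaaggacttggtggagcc
Kdelr3 (chr15:79516359-79516405, + strand): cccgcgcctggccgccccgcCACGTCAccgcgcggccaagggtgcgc

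In Sec24c, Copb1 and Kdelr3 the capitals are the motif read from the other strand. The 20 matches began or ended between positions -191 and 18, counted from the start base as 0. The match shown began at -86 in Mia3, -158 in Sar1a, -61 in Spcs1, -27 in Ssr1, which has another at -74, and -29 in Kdelr3. Of paralogs with a window, Sar1a, Sec23a, Sec24c, Sec24d, Kdelr3, Mia3 and Ctage5 held a match, and Sar1b, Sec23b, Sec24a, Sec24b, Kdelr1, Sec61a2 and Sec11a did not; no window was held for Sec61a1, Sec11c and Kdelr2. A match is a description of letters and not a measured site, and no match says only that these letters are not in this window.

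The ER stress element (ERSE), CCAAT followed after 9 bases by CCACG, was in none of the 35 genes and in 0.181% of protein-coding genes. It was in 5 of 10 genes for ER-resident proteins of the KDEL type with a window (Calr, Creld2, Hsp90b1, Hspa5 and Pdia6). The ERSE was taken as a known element. Whether any of these 5 promoters had served to define it was not checked, so their count is a description only. The related ERSE-II, ATTGG followed after 1 base by CCACG, was in none of the 35 and in 0.0562% of protein-coding genes. CCAAT alone, which every ERSE and ERSE-II match contains on 1 strand, was in 37.1% of the 35 and in 42.3% of protein-coding genes. The 16 genes with a UPRE core or XBP1 core had a median of 34.7 RPKM (5.98 to 63.5), and the 19 without had one of 17.9 RPKM (0.436 to 80.3); on matched transcripts the medians were 46.7 and 35.2. The range of the first set lay within that of the second. Srp54a, Sec61a2, Sec61b, Sec61g and Tmed10 were all in the second set. In each of them less than 75% of the 50-base stretches of the transcript occurred in no other annotated gene, so their levels are less certain. These differences between sets were not tested.

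**Figure D1:**
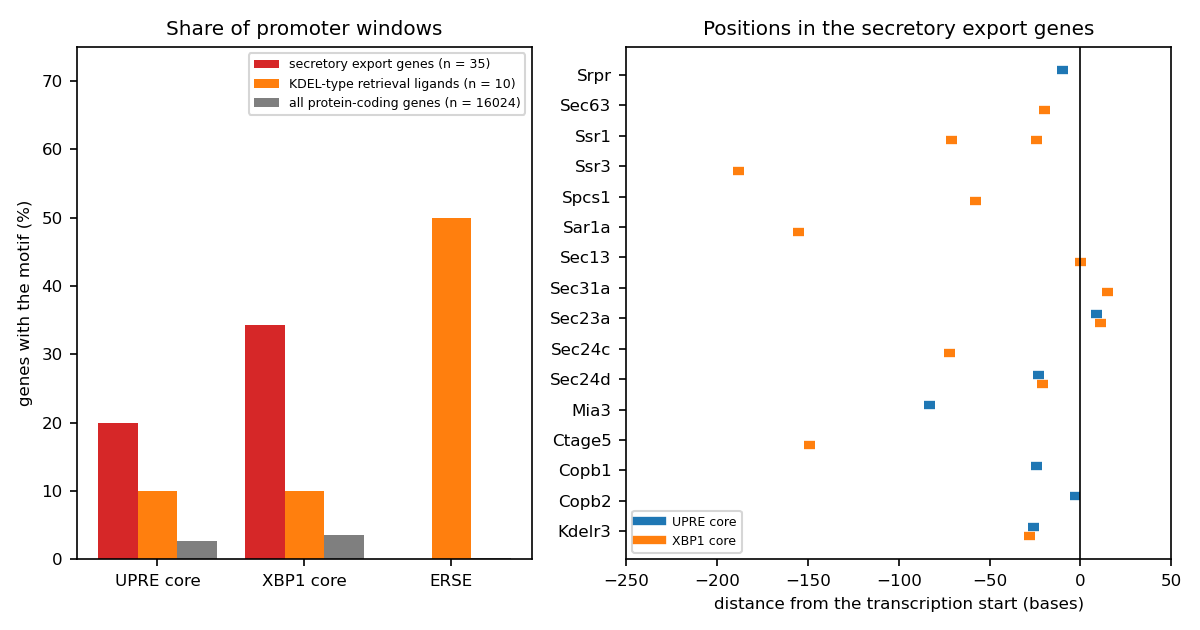
Left, percentage of genes whose promoter window holds each motif, for the secretory export genes (35), the KDEL-type retrieval ligands (10) and all protein-coding genes with a window (16024). Right, position of each UPRE core and XBP1 core relative to the transcription start (bases) in the 16 genes that hold one; ERSE is in 5 of 10 ligands and in none of the secretory export genes.

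As a group the export genes were abundant. All 44 had at least 10 reads (122 to 30171), a level reached by 68.0% of the 20400 protein-coding genes with a known length. Of the 44, 40 lay above 4.94 RPKM, the median of the 13879 protein-coding genes with at least 10 reads, against 34.0% of all protein-coding genes. A total of 33 lay above the upper quartile of those genes (12.9 RPKM), against 17.0% of all protein-coding genes, and 22 were in their top 10%. The median of the 44 was 27.3 RPKM, 5.53 times that of detected protein-coding genes, and their reads made up 0.60% of the library (exact Clopper-Pearson interval 0.598% to 0.602%). The 4 genes below the median were Srp54a, Sec61g, Sec11c and Sec24b. Division by matched length left 3 of these below it, and Sec11c above.

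**Figure D2:**
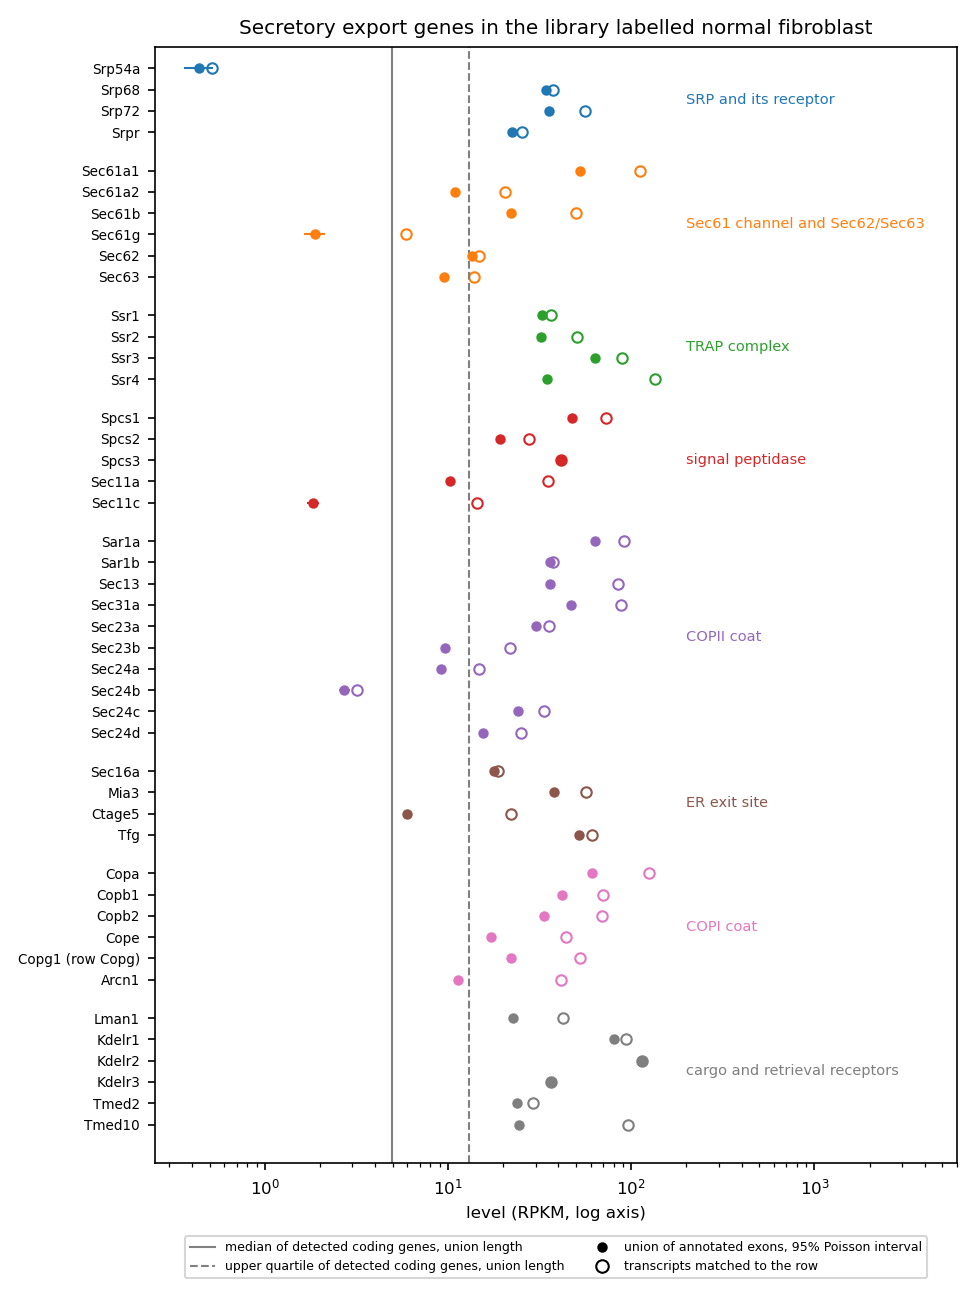
Level of each export gene in RPKM (log axis), by role; filled points divide by the union of annotated exons with the exact Poisson interval, open points by the transcripts matched to the row. Grey lines mark the median (4.94 RPKM) and upper quartile (12.9 RPKM) of detected protein-coding genes on the union length; Srp54a, Sec61g, Sec11c and Sec24b are the filled points left of the median.

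Of the SRP genes, Srp54a was far below the other 3. Srp72 (chromosome 5, 76974701 to 76999935) had 35.4 RPKM (34.7 to 36.0), and Srp68, whose product pairs with that of Srp72 on the SRP RNA, had 34.4 RPKM (33.4 to 35.3); the intervals overlapped, although over matched transcripts Srp72 was 1.498 times as high. Srpr, the receptor subunit that docks SRP to the ER, had 22.4 RPKM. Srp54a, which encodes the signal-binding GTPase, had only 122 reads, or 0.436 RPKM (0.362 to 0.521). Mouse has near-identical copies of Srp54a: of the 50-base windows of its transcript, 24.8% occurred in no other annotated gene, and 75.1% occurred in Srp54b as well. The row of another copy, Srp54c, named after its value was seen, had 429 reads and 6.12% unique windows. The reads of Srp54b are not given here. With all its reads divided by unique windows alone, Srp54a had 2.11 RPKM, which is too high if reads in shared windows were counted. Its level is uncertain wherever reads were shared. Of the other SRP genes, Srp14 had 38.2 RPKM, Srprb, the membrane anchor of the receptor, 15.6 RPKM, Srp19 4.497 RPKM and Srp9 4.08 RPKM; the last 2 lay below the median of detected genes on union length, and had 18.6 and 16.5 matched RPKM.

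The Sec61 channel is built of an alpha, a beta and a gamma subunit, and their transcripts differed widely. Sec61a1 (chromosome 6, 88503607 to 88518800), the pore, had 52.5 RPKM (51.8 to 53.3; matched 111 RPKM). Its paralog Sec61a2 had 10.9 RPKM, so Sec61a1 was 4.80 times as high (4.61 to 5.003) and made up 82.8% of the level of the pair. Sec61b had 22.1 RPKM (20.96 to 23.2; matched 49.8), 0.420 times the level of Sec61a1 (0.398 to 0.443). Sec61g (chromosome 11, 16501638 to 16508484) had 242 reads, or 1.87 RPKM (1.64 to 2.12; matched 5.92), which was 0.0356 times Sec61a1; the ratio was 0.0621 over coding length and 0.0531 over matched transcripts. The small subunits have processed copies: 59.0% of Sec61b windows and 55.6% of Sec61g windows were unique. Divided by unique windows, Sec61g reached 11.4, Sec61b 92.3 and Sec61a1 133 RPKM, in the same order. That division uses all reads of a row, and whether reads in shared windows were counted is not known. Sec61a1 shared 14.6% of its windows with a gene on the opposite strand. Sec61a2 also shares 19.9% of its exonic length with Nudt5 on the opposite strand, a gene of 1328 reads, and the counting's strand setting is not known. The post-translational partners Sec62 and Sec63, a channel-binding protein and a J-domain co-chaperone, had 13.4 and 9.45 RPKM.

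Next to the channel sits the TRAP complex, which helps some signal peptides to open it. Its 4 subunits were all abundant. Ssr3 (chromosome 3, 65379657 to 65392553) had 63.5 RPKM (62.4 to 64.5), Ssr4 34.9, Ssr1 32.7 and Ssr2 32.2 RPKM, so that the highest was 1.97 times the lowest. The TRAP median, 33.8 RPKM, was the highest of the 8 role groups on union length. Over matched transcripts Ssr4 led, at 135 RPKM, and Ssr1 was lowest, at 36.5 RPKM, a spread of 3.69 times; Ssr1 has a long transcript of 9333 bases.

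Signal peptidase removes the signal peptide in the ER lumen. Spcs1 had 47.2 RPKM (45.7 to 48.7), Spcs3 41.6 RPKM and Spcs2 19.1 RPKM, the genes of its non-catalytic subunits. Spcs1 shares 16.3% of its exonic length with Glt8d1 on the opposite strand, a gene of 1124 reads, and the counting's strand setting is not known. The catalytic subunit is made from either of 2 paralogs, Sec11a and Sec11c. Sec11a had 2482 reads, or 10.2 RPKM (9.85 to 10.7), and Sec11c 653 reads, or 1.83 RPKM (1.69 to 1.97). The ratio of Sec11a to Sec11c was 5.61 (5.14 to 6.12) on union length and 2.43 (2.23 to 2.65) over matched transcripts. Of 12 genes of oligosaccharyltransferase and TRAM, which glycosylate and receive the entering chain, all reached 10 reads, against 68.0% of protein-coding genes. Their median was 30.7 RPKM, from Rpn2 at 90.1 RPKM to Tram2 at 4.86 RPKM.

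COPII assembly begins with the GTPase Sar1. Sar1a (chromosome 10, 61680285 to 61693297) had 63.5 RPKM (62.4 to 64.7) and Sar1b, the form mutated in human chylomicron retention disease, 36.0 RPKM (34.5 to 37.4). The ratio of Sar1a to Sar1b was 1.77 (1.69 to 1.85) on union length and 2.42 over matched transcripts. In the outer coat, Sec31a had 47.1 RPKM (46.5 to 47.8) and Sec13 36.1 RPKM (35.2 to 37.1), a ratio of 1.30 that came to 1.03 (1.004 to 1.06) over matched transcripts and to 0.846 over coding length. Sec31b, the paralog of Sec31a, had 58 reads, or 0.280 RPKM.

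In the inner coat the paralogs of each subunit differed beyond counting error. Sec23a, mutated in a human skeletal disorder with retained collagen, had 30.1 RPKM (29.4 to 30.8), and Sec23b 9.56 RPKM (9.23 to 9.90). The ratio was 3.15 on union length and 1.64 (1.57 to 1.71) over matched transcripts. Sec24 subunits bind the cargo. Sec24c had 23.9 RPKM (23.4 to 24.5), Sec24d, needed for procollagen export in fish and in human bone disease, 15.5 RPKM (15.1 to 15.9), Sec24a 9.12 RPKM (8.87 to 9.37) and Sec24b 2.72 RPKM (2.54 to 2.90). Of the level of the 4 genes together Sec24c made up 46.7%, Sec24d 30.2%, Sec24a 17.8% and Sec24b 5.29%. No intervals in this order overlapped, and the same order was found with matched transcripts, where the shares were 43.6%, 32.9%, 19.4% and 4.17%. Summed, Sec24 had 51.3 RPKM, Sec23 39.7 RPKM and Sar1 99.5 RPKM.

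**Figure D3:**
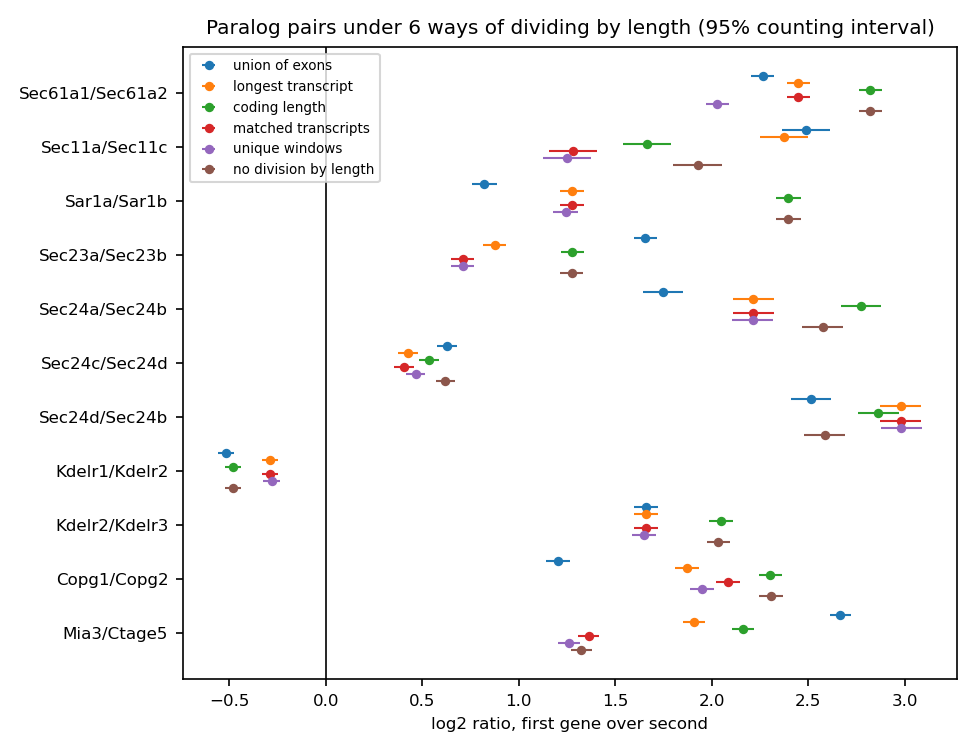
Log2 ratio of the first gene over the second in each of 11 paralog pairs, divided by 6 measures of length, with 95% counting intervals. In every pair all 6 points lie on the same side of 0, and Kdelr1 over Kdelr2 is the one pair on the negative side. No measure covers a Mia3 form longer than the annotated one.

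ER exit sites hold the factors that fit COPII to large cargo. Mia3 (TANGO1; chromosome 1, 183326236 to 183369565) had 8841 reads, or 38.0 RPKM (37.2 to 38.8; matched 56.9). Ctage5, which encodes its partner cTAGE5, had 3530 reads, or 5.98 RPKM (5.79 to 6.18; matched 22.1). The ratio of Mia3 to Ctage5 was 6.35 (6.11 to 6.61) on union length, 2.57 over matched transcripts and 2.505 with no division by length. The longest Mia3 model in the annotation has a coding length of 2343 bases, so a longer form would lower its level per length. The RefSeq table joins Ctage5 with Mia2, whose own row had 7 reads. The union, longest-transcript and coding lengths used for Ctage5 are those of the joined gene. Its exon union is 11239 bases, against 3038 bases for its matched transcripts. Division by the longer length lowers the level of Ctage5 and raises the ratio of Mia3 to Ctage5. Tfg, which organises the space between ER and Golgi, had 52.0 RPKM (50.7 to 53.3), and Sec16a, the exit-site scaffold, 17.9 RPKM (17.5 to 18.3). Of 7 other COPII and exit-site genes all reached 10 reads, against 68.0% of protein-coding genes, and their median was 9.41 RPKM. Pef1 and Pdcd6, the calcium-binding partners of the ubiquitin ligase adaptor KLHL12, had 24.998 and 24.1 RPKM, and Klhl12 itself 1.87 RPKM (matched 6.61). Preb, the exchange factor for Sar1, had 9.41 RPKM, Sec23ip 13.5 RPKM and Sec16b 2.5 RPKM.

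COPI subunits were abundant. Copa (chromosome 1, 172082529 to 172122332) had 30171 reads, the most of the 44, and 61.0 RPKM (60.3 to 61.7). Copb1 had 41.8 RPKM, Copb2 33.2, Cope 17.1 and Arcn1, the delta subunit, 11.3 RPKM (11.1 to 11.6), a spread of 5.38 times. Arcn1 has an exon union of 14915 bases and matched transcripts of 4072 bases, and over matched transcripts it had 41.5 RPKM and the spread was 2.99 times. The row Copg (Copg1; chromosome 6, 87887819 to 87913595) had 12797 reads, or 22.1 RPKM (21.8 to 22.5; matched 52.7), 2.30 times its paralog Copg2 at 9.61 RPKM (4.24 times over matched transcripts). Copg2 shares 17.8% of its exonic length with Mest on the opposite strand, a gene of 173 reads. Copz1 had 21.2 and Copz2 12.8 RPKM, so all 7 subunits of the coat had transcripts. All 12 other COPI and Arf genes lay above the median of detected genes, against 34.0% of all protein-coding genes. They were led by Arf4 at 100 RPKM and Arf1 at 76.2 RPKM, GTPases that recruit coats. The exchange factor gene Gbf1 had 22.7 RPKM, and Arfgap2, at 6.77 RPKM, was lowest.

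Of the receptors that ride these coats, Kdelr2 had the highest level of the 44 genes on union length; over matched transcripts Ssr4 and Copa exceeded it. Kdelr2 (chromosome 5, 143403820 to 143421904) had 114.8 RPKM (112.7 to 117.0) and was at rank 182 of 20400 protein-coding genes. Kdelr1 had 80.3 RPKM (78.5 to 82.1), 0.699 times Kdelr2 (0.679 to 0.720), and Kdelr3 36.3 RPKM (34.96 to 37.7). Kdelr2 was 3.16 times as high as Kdelr3 (3.03 to 3.30). Kdelr2 made up 49.6%, Kdelr1 34.7% and Kdelr3 15.7% of their joint level. Lman1 (ERGIC-53, a lectin that carries coagulation factors) had 22.7 RPKM, and Mcfd2, its partner, 41.0 RPKM. Tmed10 and Tmed2, which belong to the p24 family, had 24.5 RPKM (23.9 to 25.03) and 23.9 RPKM (23.1 to 24.8), a ratio of 1.02 (0.982 to 1.07) that was 3.29 over matched transcripts; 67.6% and 72.4% of their windows were unique, so this pair is uncertain. Of 7 other p24 genes 6 lay above the median of detected genes, led by Tmed7 at 33.1 RPKM (matched 217), and Tmed6 had 22 reads. Of 10 other cargo receptors 8 lay above that median, as did 34.0% of all protein-coding genes. Surf4 had 113 RPKM and Cnih1 (row Cnih) 64.1 RPKM, while Lman1l, below the median, had 17 reads.

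**Figure D4:**
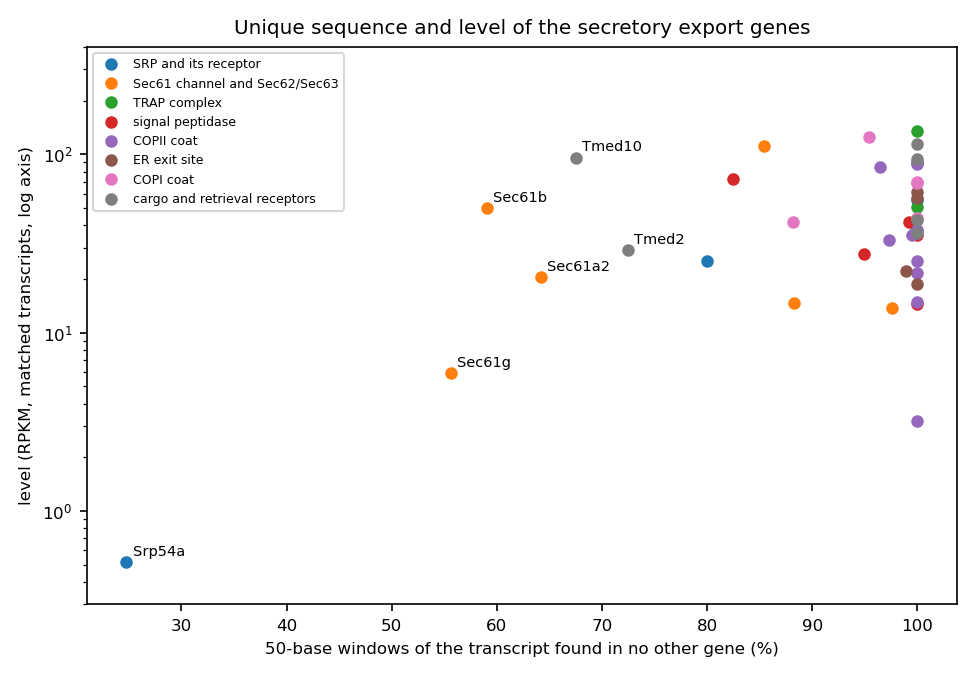
Level of each export gene in matched RPKM (log axis) against the percentage of its transcript's 50-base windows that occur in no other annotated gene on either strand. Of the 44 genes 24 are at 100%; the 6 named genes are below 75%, among them Srp54a (24.8%) and Sec61g (55.6%).

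The medians of the role groups ran from 12.2 RPKM for the channel group and 19.1 RPKM for signal peptidase to 33.8 RPKM for TRAP, with COPII at 27.02, the exit site at 28.0, SRP at 28.4, receptors at 30.4 and COPI at 33.2 RPKM. All 8 medians lay above that of detected protein-coding genes with the union, longest-transcript, coding and matched lengths and with no division by length. The channel group was the lowest of the 8 under these 5 settings; the order of the others changed. Across the 44 genes the level fell with exonic length (Spearman rho -0.37 on union length, -0.27 on matched length), against -0.09 over detected protein-coding genes; these points share 1 library and length enters both axes.

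The 9 procollagen chain genes examined had a median of 243 RPKM, from Col1a1 at 424 RPKM to Col6a2 at 42.4 RPKM, and together had 52.0 times the level of Mia3. The 12 KDEL-type ligands, ER chaperones that the receptors retrieve, had a median of 84.8 RPKM, from Serpinh1, the collagen chaperone HSP47, at 638 RPKM to Sdf2l1 at 12.3 RPKM. The summed level of these ligands was 8.51 times that of the 3 KDEL receptors. Of 9 genes of the unfolded protein response and CREB3 family, 8 lay above the median of detected genes, against 34.0% of all protein-coding genes. Atf4 had 89.6 RPKM, Xbp1 35.01, Creb3 33.4, Creb3l1 17.0 and Atf6 16.4 RPKM. Creb3l2, a factor that in mouse cartilage drives Sec23a, had 13.2 RPKM, while Ern1, the XBP1-splicing enzyme, had 4.12 RPKM. The 16 SNARE and tether genes that fuse the carriers all reached 10 reads, against 68.0% of protein-coding genes. Of the 16, 11 lay above the median of detected genes, against 34.0% of all protein-coding genes. By definition that median splits the detected genes evenly, and all 16 were detected. Their own median was 10.9 RPKM, from Rab1b at 93.8 RPKM to Bnip1 at 2.33 RPKM.

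**Figure D5:**
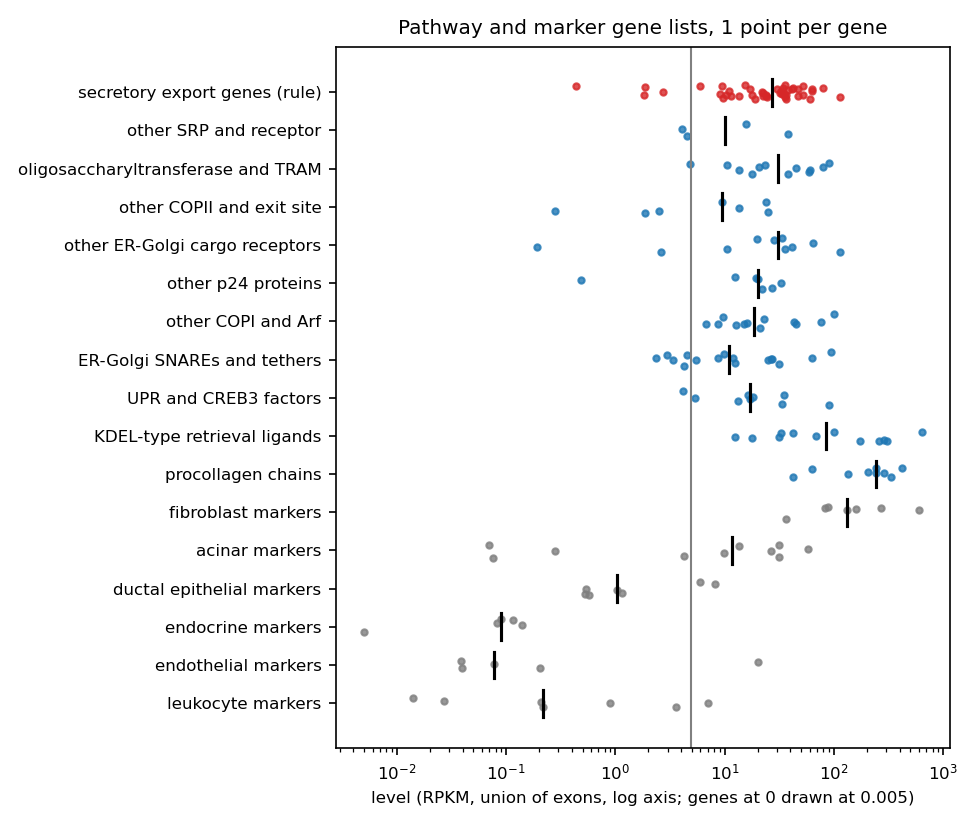
Level of each gene in RPKM (log axis) for the export genes (red), related pathway lists (blue) and cell-type markers (grey); 1 point is 1 gene, black bars are list medians and the grey line is the median of detected protein-coding genes (4.94 RPKM). Procollagen chains (median 243 RPKM) and KDEL-type ligands (84.8 RPKM) lie to the right of the export genes (27.3 RPKM).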

How the data were processed

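Per the labels' protocols, TRIzol RNA of 1 culture was sequenced as a SOLiD library. The authors' deposited values are a signal: read counts per gene divided by 1 library-wide size factor (0.850). Of 20976 values above 0, 100% were whole multiples of 1.18 within 0.006, which gave 52494688 whole reads; the depth of every gene is its read count. The submitters' processing notes name DESeq and mm10 without a role; not given in the sources used here are the aligner, counting tool, strand setting and filters. No replicate exists, so no count test was run.

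Rows of 1 name were summed. Genes with an NM accession counted as protein-coding. Lengths came from GENCODE M21 (99.2% of protein-coding genes), coordinates (1-based) and promoters from RefSeq GRCm38.p6, the assembly of mm10. Intervals are exact Poisson for levels and exact binomial for ratios; PCR reads are not independent molecules, so they cover counting error only. Detection was set at 10 reads and logs used a pseudocount of 0.5. Unique windows are 50-base stretches of the longest matched transcript absent from every other GENCODE transcript. All 44 rows are named by rule, with the highest and lowest gene of each related list; any other gene named was chosen after its value was seen; members and lists were chosen with earlier results of these data known. Other lengths, totals, pseudocounts, filters and backgrounds were tried. Scripts were tested on simulated data. Tools were scipy 1.17.1 (intervals), pandas 2.3.3, numpy 2.4.6 and matplotlib 3.10.9 under Python 3.11.15. 1 further item of the genotype label is not reported here.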

Additional observations from a re-analysis of the deposited data

How the results depend on the processing

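No paired analysis was possible because only 1 library was analysed, and no replicate could be left out. The count of genes with at least 10 reads stayed at 44 at 1 and 50 reads (45 with the row Copg, an alternative added after seeing the data, as were matched transcripts and unique windows). Of the 44, 40 to 43 lay above the median of protein-coding genes with the union, longest-transcript, coding and matched lengths, with no division by length and with other backgrounds. All 8 role medians stayed above it under the same lengths (unique windows were not run for either), and 10 of 11 pairs had the first gene higher under these and under unique windows. The median level of the export genes, 4.79 as log2(RPKM + 0.5), depends on the scale: it was 5.24 with the longest transcript, 6.31 with coding length, 5.32 with matched transcripts, 5.40 with unique windows and 6.69 with no division by length. It was 4.91 with a total of coding genes and 5.20 without the 100 most abundant genes in the total. With a pseudocount of 5 it was 5.01, and with the row Copg 4.64. Without 7 genes with less than 75% unique windows or a same-strand exon overlap it was 5.08. Against detected protein-coding genes on the same length (union, longest, coding or matched), the ratio of medians stayed between 5.08 and 5.59. Of 55 log2 ratios of pairs under other lengths, 47 left the counting interval of the main value and none changed sign. None of these lengths covers a Mia3 form longer than the annotated one. The fewest reads of an export gene were 122 (Srp54a, 0.362 to 0.521 RPKM by counting; 2.11 RPKM over unique windows); without replicates the spread between cultures is unknown.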
